A study of Rattus norvegicus with 54 samples.

Results

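The smooth muscle contractile programme, led by Myh11, was followed across the left ventricle of athymic rats (F344/NJcl-rnu/rnu, female, 8 weeks old) 1 week after surgery. The 10 members, Myh11, Acta2, Tagln, Cnn1, Smtn, Lmod1, Mylk, Synpo2, Actg2 and Myocd, were matched by symbol among the 40319 genes listed in each library, and all 10 were found. Myh11 was chosen by its measured values: in the remote zone, away from the infarct, it was the 1 gene with an adjusted p under 0.05 between infarcted hearts given a cell sheet (CS) and sham-operated hearts (Sham). The other 9 were added as genes of the same programme, with earlier results of these data known.

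Sham rats had sham surgery, MI rats had a permanent ligation of the proximal left anterior descending coronary artery, and CS rats had the same ligation followed by a cell sheet laid on the epicardium. The sheet was a bi-level layer of human cells, with smooth muscle cells (SMCs) derived from bone marrow mesenchymal stem cells and endothelial progenitor cells (EPCs) from blood. Each of the 18 animals gave 3 poly(A) libraries, from the infarct zone (anterior wall), the border zone (lateral wall) and the remote zone (septum), so that each of the 9 groups held 6 libraries of 6 animals and 54 libraries were compared in all. All animals lacked a functional thymus, and the SMCs of the sheet were themselves of the lineage that expresses these genes. Reads were counted on rat genes only, and the share of human reads among them was not measured.

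In vascular smooth muscle, force comes from a smooth muscle myosin heavy chain (Myh11) sliding on smooth muscle actins (Acta2 in vessels, Actg2 in visceral muscle). Myosin light chain kinase (Mylk) switches the motor on, calponin (Cnn1) and transgelin (Tagln) bind the actin filaments, leiomodin (Lmod1) nucleates them, and smoothelin (Smtn) and synaptopodin-2 (Synpo2) are tied to the filaments of mature contractile cells. Myocardin (Myocd) is the coactivator of serum response factor that drives the programme, and it is made in cardiomyocytes as well as in smooth muscle. Myh11 is largely confined to smooth muscle cells, whereas Acta2 and Tagln are also made by the myofibroblasts that fill a healing infarct.

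RefSeq (GRCr8) holds a promoter window, from 250 bases before to 50 bases after the start, for 6 of the 10 members: Acta2, Cnn1, Smtn, Mylk, Synpo2 and Actg2. Myh11, Tagln, Lmod1 and Myocd have no entry. The windows were searched for the CArG box, the site of serum response factor, which reads the same on both strands. An exact box was in none of the 6 and in 1.64% of the 33469 windows of all genes. With 1 mismatch allowed, the share over all genes was 21.3%, and 2 of the 6 held a match. 3 windows are shown, because Acta2 and Actg2 moved together after infarction and Smtn moved the other way. Letters in capitals mark matches with at most 1 mismatch.
Acta2 (chr1:241172454-241172753, minus strand): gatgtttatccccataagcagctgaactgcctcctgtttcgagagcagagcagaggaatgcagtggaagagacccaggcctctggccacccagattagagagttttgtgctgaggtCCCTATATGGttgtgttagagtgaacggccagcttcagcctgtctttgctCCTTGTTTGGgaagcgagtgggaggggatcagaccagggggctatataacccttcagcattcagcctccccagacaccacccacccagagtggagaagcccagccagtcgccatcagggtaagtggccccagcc
Actg2 (chr4:117593990-117594289, minus strand): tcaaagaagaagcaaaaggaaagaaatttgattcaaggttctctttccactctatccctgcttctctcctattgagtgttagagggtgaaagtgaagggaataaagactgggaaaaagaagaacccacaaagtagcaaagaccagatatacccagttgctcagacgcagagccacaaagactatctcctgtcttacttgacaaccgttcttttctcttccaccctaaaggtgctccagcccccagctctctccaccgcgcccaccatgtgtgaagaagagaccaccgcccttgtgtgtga
Smtn (chr14:82644465-82644764, minus strand): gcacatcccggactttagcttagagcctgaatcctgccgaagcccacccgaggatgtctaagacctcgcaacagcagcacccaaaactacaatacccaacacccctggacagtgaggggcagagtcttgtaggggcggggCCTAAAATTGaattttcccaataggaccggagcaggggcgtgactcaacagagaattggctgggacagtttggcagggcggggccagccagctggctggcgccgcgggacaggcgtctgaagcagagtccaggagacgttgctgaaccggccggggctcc
Acta2 held 2 matches, beginning 134 and 84 bases before the start, Smtn held 1, beginning 110 bases before it, and Actg2 held none. The Actg2 window ends in the first codons of its coding sequence, and sites farther upstream were not searched. Its lack of a match is therefore no result about its promoter.

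The libraries held between 12699204 and 23397754 counts on genes, and levels are given as CPM, the counts of a library divided by its size after TMM scaling over the 54 libraries. Acta2 and Actg2 encode near-identical proteins, and how any reads shared by both were counted is not given in the sources used here. Neither is the strand used in counting, so reads of Lmod1, Mylk, Synpo2 and Myocd cannot be told apart from those of the non-coding genes that RefSeq (GRCr8) places over them. In this bulk tissue, fewer cells of a type and less RNA per cell cannot be told apart. A pair of animals stood apart. Sham replicate 5 had summed CPM of 5 macrophage markers of 6596 to 11670 in its 3 zones, against 231 to 614 in the other 5 sham animals. In the remote zone, CS replicate 1 had summed CPM of 10 myofibroblast markers of 35474, against 1920 to 9204 in the other 5 CS animals, and its border zone held a cardiomyocyte marker sum of 127 against 7156 to 24072. Results that depend on these animals are given with and without them. Fold changes are log2 values from edgeR's quasi-likelihood test. The value after ± is an approximate standard error, the size of the fold change divided by the square root of the test's F statistic. Adjusted p-values are Benjamini-Hochberg values over all genes tested in the comparison. Where groups are said not to overlap, the share of all genes without overlap is not given, so this describes the member alone.

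Myh11 had its 3 highest group medians in the 3 CS groups. In the remote zone its level was 35.7, 43.3 and 67 CPM (lowest, median and highest) in Sham, 22.5, 31.2 and 41.9 in MI and 89.3, 151 and 183 in CS. In the border zone it was 13.7, 30.8 and 46.7 CPM in Sham, 20.8, 52.6 and 72.4 in MI and 101, 118 and 162 in CS. Within the infarct zone it was 17, 30 and 43.6 CPM in Sham, 32.8, 79.5 and 163 in MI and 108, 145 and 207 in CS. All 18 CS libraries lay above all 18 sham libraries, 67 CPM being the highest sham level, and 2 of the 36 Sham and MI libraries reached the lowest CS value of 89.3 CPM, both from the infarct zone of MI. The remote libraries of CS and Sham served to choose Myh11, so their separation is not independent of that choice. Their infarct and border libraries come from the same hearts, so these are not fully independent of it either. CS and MI did not overlap in the border and remote zones and overlapped in the infarct zone. Ordered by median, the groups ran from CS remote, CS infarct and CS border through MI infarct, MI border, Sham remote, MI remote and Sham border to Sham infarct, and the ranges of each neighbouring pair overlapped.

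**Figure D1:**
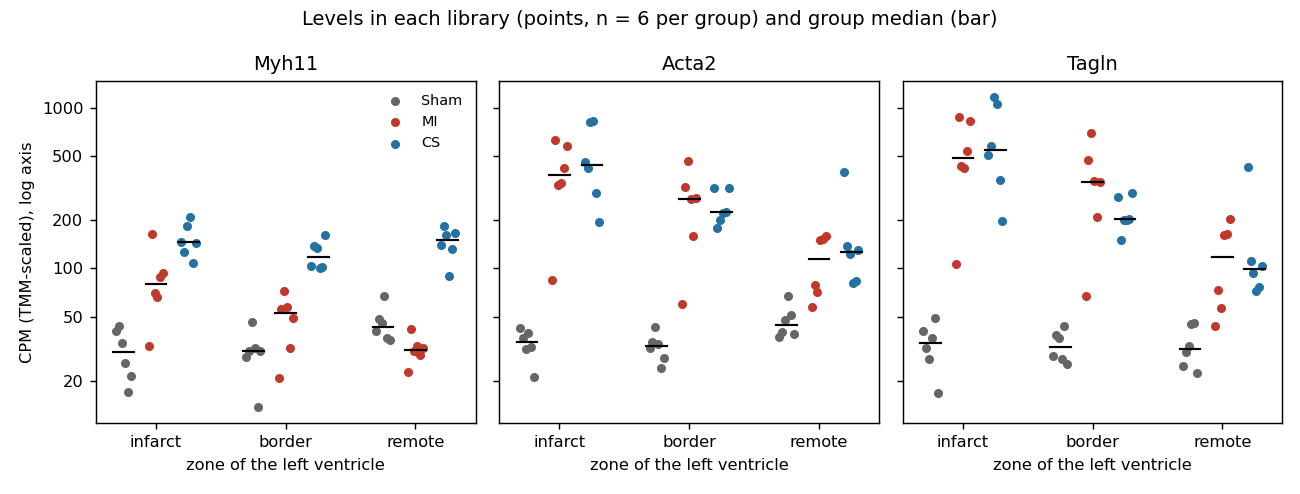
Level of Myh11, Acta2 and Tagln in each of the 54 libraries (points, TMM-scaled CPM on a log axis) by zone and treatment, with the median of the 6 libraries of a group as a bar. Myh11 had its highest median in CS in every zone (CS libraries at 89.3 to 207 CPM, overlapping MI in the infarct zone), whereas Acta2 and Tagln had higher medians in the infarct and border zones than in the remote zone in both MI and CS. The remote levels of Myh11 in CS and Sham are those that chose it.

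Acta2, the vascular smooth muscle actin, had its highest medians in the infarct and border zones of MI and CS. Within the infarct its level was 21.1, 34.6 and 42.7 CPM in Sham, 84.8, 382 and 632 in MI and 193, 442 and 823 in CS. At the border it was 24, 32.8 and 43.4 CPM in Sham, 60.4, 272 and 466 in MI and 179, 224 and 318 in CS. The remote zone gave 37.5, 44.2 and 67.2 CPM in Sham, 57.4, 115 and 158 in MI and 81.4, 127 and 400 in CS. MI and CS overlapped in every zone, and the highest remote value, 400 CPM, came from CS replicate 1. By median, its groups ran from CS infarct, MI infarct, MI border and CS border through CS remote and MI remote to the 3 sham groups, with overlap between each neighbouring pair.

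Tagln had the same order of zones in MI and CS. Its infarct zone medians were 34.5 CPM in Sham, 487 in MI and 543 in CS, its border zone medians were 32.7, 347 and 202, and its remote zone medians were 31.5, 118 and 98.8. Across the 54 libraries, after the mean of each of the 9 groups was taken out of log2 CPM, Acta2 and Tagln correlated at r = 0.96. Values of r here and below are descriptions over libraries of which 3 come from each animal.

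The comparison of MI with Sham asked what the infarct alone did to these genes. In the infarct zone, 7 members were higher and 3 were lower in MI. Of the 15758 genes tested there, 22.7% were higher and 27.2% lower. Cnn1 rose by 4.61 ± 0.80 on the log2 scale (adjusted p = 0.00114, edgeR), from a sham median of 0.359 CPM to an MI median of 19.3. Actg2 rose by 4.17 ± 0.53 (adjusted p = 0.000179), Tagln by 3.97 ± 0.46 (adjusted p = 0.000104) and Acta2 by 3.54 ± 0.40 (adjusted p = 9.34e-05), each with no overlap between the groups. Lmod1 rose by 2.68 ± 0.41 (adjusted p = 0.000584). Myh11 rose by less, 1.50 ± 0.34 (adjusted p = 0.00446), with 5 of 6 MI libraries above the highest sham value. Mylk, whose product activates the myosin, rose by 0.53 ± 0.15 (adjusted p = 0.0119).

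Smtn, Synpo2 and Myocd moved the other way in the infarct zone of MI. Myocd fell by 1.48 ± 0.40 on the log2 scale (adjusted p = 0.00939, edgeR), from a sham median of 116 CPM to 35.5. Synpo2 fell by 0.99 ± 0.32 (adjusted p = 0.022), from 82.9 to 41.1 CPM, and Smtn by 0.58 ± 0.20 (adjusted p = 0.0314), from 182 to 115 CPM. Sham replicate 5 held the lowest sham level of all 3 (39.1, 40.4 and 75.6 CPM), and the ranges overlapped through that animal. The call on Smtn was lost in 8 of the 12 fits that each left out 1 animal, with adjusted p-values up to 0.069. Library sizes without TMM factors also ended the calls on Smtn (adjusted p = 0.176) and Synpo2 (adjusted p = 0.0582). Summed cardiomyocyte markers moved with these genes, from 17302 to 56729 CPM in Sham to 2416 to 27686 in MI, with all 8 markers detected in both. After removal of group means, the mean log2 level of those 8 markers correlated with Myocd at r = 0.96, with Synpo2 at 0.80 and with Smtn at 0.62, and the macrophage markers correlated with Smtn at r = -0.96. Their part in the fall of the 3 genes was not tested.

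In the border zone, 5 members were higher and 2 lower in MI, beside 18.4% and 23.2% of the 15641 genes tested. Actg2 rose by 3.62 ± 0.46 on the log2 scale (adjusted p = 0.000307, edgeR), with Cnn1, Tagln, Acta2 and Lmod1 between 1.96 and 3.66 higher. Synpo2 fell by 1.04 ± 0.39 (adjusted p = 0.0491) and Myocd by 1.28 ± 0.43 (adjusted p = 0.0306). For Myh11 the difference was 0.67 ± 0.31 (adjusted p = 0.102), and for Smtn it was -0.60 ± 0.23 (adjusted p = 0.0563). Without Sham replicate 5 the difference of Smtn was -0.76 (adjusted p = 0.000309), and without MI replicate 1 Myh11 passed (adjusted p = 0.0331). The falls of Synpo2 and Myocd did not hold in 9 and 4 of the 12 fits without 1 animal, with adjusted p-values up to 0.106 and 0.0717.

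Remote from the infarct, the members split. Acta2, Tagln, Cnn1 and Actg2 were higher in MI and Myh11, Synpo2 and Myocd lower, beside 11.7% higher and 14.2% lower among the 15294 genes tested. Actg2 rose by 1.86 ± 0.46 (adjusted p = 0.0113, edgeR), Tagln by 1.80 ± 0.37 (adjusted p = 0.00463) and Acta2 by 1.23 ± 0.26 (adjusted p = 0.0056). Over the same libraries Myh11 fell by 0.55 ± 0.17 (adjusted p = 0.0302), with overlapping groups. This call on Myh11 was not stable: leaving out 1 animal at a time gave adjusted p-values from 0.00795 to 0.0676, 8 of the 12 above 0.05, and library sizes without TMM factors gave 0.0864. Synpo2 fell by 0.85 ± 0.13 (adjusted p = 0.00129), from 139, 156 and 172 CPM in Sham to 68.3, 80 and 110 in MI with no overlap. Myocd fell by 0.73 ± 0.21 (adjusted p = 0.0232), a call lost in 3 of the 12 fits without 1 animal, and the call on Cnn1 was lost in 7 of them. The sham libraries used here are those against which Myh11 was chosen.

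The effect of MI differed between the infarct and remote zones for 7 members, each with the higher fold change in the infarct zone, in a fit of treatment by zone that kept each animal's 2 libraries together. Of the 16445 genes tested, 28.9% passed. The difference in effect was 3.32 ± 0.82 for Cnn1 (adjusted p = 0.00985, edgeR), 2.31 ± 0.61 for Actg2, 2.20 ± 0.34 for Acta2 and 1.97 ± 0.27 for Myh11 (adjusted p = 0.00068). Smtn (-0.10 ± 0.17), Synpo2 (-0.21 ± 0.30) and Myocd (-0.83 ± 0.34, adjusted p = 0.0748) did not pass. The same test between border and remote zones called 0% of 16475 genes (3995 at an unadjusted p under 0.05), and the difference for Myh11 was 1.17 ± 0.27 (adjusted p = 0.064). The sham remote libraries in both tests served to choose Myh11, so its values in them are not independent of that choice.

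The comparison of CS with MI asked what the cell sheet changed in infarcted hearts. Remote from the infarct, 4 members were higher in CS and none lower, beside 10.3% and 6.79% of the 15374 genes tested. These libraries of CS also served to choose Myh11, so its value is not independent of that choice. Myh11 was higher by 2.20 ± 0.18 on the log2 scale (adjusted p = 0.00017, edgeR), and every CS library lay above every MI library. Lmod1 was higher by 1.30 ± 0.31 (adjusted p = 0.0168), at 6, 9.17 and 18.2 CPM in CS against 2.34, 4.03 and 5.99 in MI. Synpo2 was higher by 1.07 ± 0.16 (adjusted p = 0.00602), at 122, 186 and 218 CPM in CS against 68.3, 80 and 110 in MI. Mylk was higher by 0.39 ± 0.10 (adjusted p = 0.0248), at 91.5, 103 and 136 CPM against 74.6, 81.1 and 88.8. None of these 4 had overlapping groups, though the share of all genes for which that holds is not given here. Cardiomyocyte markers moved with Synpo2 here too: their summed CPM was 18047, 43294 and 54232 in CS against 20907, 27065 and 34816 in MI, with 2 of the 8 (Ryr2 and Mybpc3) called higher and all 8 detected. Their part in the difference of Synpo2 was not tested. Mylk missed the threshold without CS replicate 6 or MI replicate 5 (adjusted p of at most 0.061) and with library sizes without TMM factors (adjusted p = 0.0922).

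Acta2 and Tagln were not called between CS and MI in the remote zone. The difference was 0.52 ± 0.40 for Acta2 (adjusted p = 0.377, edgeR) and 0.34 ± 0.50 for Tagln (adjusted p = 0.654). Without CS replicate 1, whose remote library carried the highest myofibroblast marker sum, these became -0.02 and -0.37, while Myh11 stayed at 2.20 (adjusted p = 5.23e-05). The CS libraries of that fit served to choose Myh11, so its value there is not independent of that choice. In that fit Smtn (0.49, adjusted p = 0.00852) and Myocd (0.67, adjusted p = 0.00396) also passed, giving 6 members higher, while the genes called higher in that fit numbered 3222 of 15502, against 1579 of 15374 with all animals. The 5 CS libraries of that fit had cardiomyocyte marker sums of 37699 to 54232 CPM, all above those of MI.

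In the border zone, Myh11 and Mylk were higher in CS than in MI, beside 8.47% of the 16272 genes higher and 9.48% lower. Myh11 rose by 1.37 ± 0.26 on the log2 scale (adjusted p = 0.00442, edgeR). This call held in all 12 fits that left out 1 animal, with an adjusted p of at most 0.0132. The CS hearts are those whose remote libraries served to choose Myh11, so its value here is not fully independent of that choice. Mylk was higher by 0.46 ± 0.15 (adjusted p = 0.046), at 107, 132 and 137 CPM in CS against 71.5, 88.6 and 125 in MI. Its call was lost when any of 9 animals was left out, with values between 0.0639 and 0.091. Synpo2 differed by 1.43 ± 0.46 (adjusted p = 0.0502), and without CS replicate 1 by 1.63 (adjusted p = 0.0173). The difference was -0.08 ± 0.37 for Acta2 (adjusted p = 0.914) and -0.68 ± 0.41 for Tagln (adjusted p = 0.283).

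Markers of other cell types also differed between CS and MI in the border zone. Of the 4 adipocyte markers tested, Plin1, which coats lipid droplets, was higher by 6.34 (adjusted p = 0.0142, edgeR) and Cidec by 4.92 (adjusted p = 0.021), and the summed CPM of all 5 was 19.6, 552 and 1402 in CS against 38.8, 103 and 273 in MI, with overlap. Lyz2, the lysozyme of macrophages, fell by 1.40 (adjusted p = 0.0116), the 1 called of 5 macrophage markers, whose summed CPM was 1630, 2132 and 4385 in CS against 2443, 5829 and 8026 in MI, also with overlap. The endothelial cadherin Cdh5 was higher by 0.82 (adjusted p = 0.00339), the 1 called of 6 endothelial markers. The part of these cells in the differences of Myh11 and Mylk was not tested.

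Between CS and MI in the infarct zone, 0 members and 0% of the 16196 genes passed with edgeR, while 1341 genes had an unadjusted p under 0.05. The difference in Myh11 was 0.83 ± 0.30 there (adjusted p = 0.511, and 0.298 with DESeq2). The differences of the 10 members ran from -0.47 ± 0.64 for Myocd to 0.83 ± 0.51 for Cnn1. When the infarct and border counts of each animal were summed, 6.02% of the 17985 genes were higher and 6.09% lower, and Myh11 (1.01 ± 0.25, adjusted p = 0.0216, edgeR) and Synpo2 (1.00 ± 0.21, adjusted p = 0.0126) were higher in CS.

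For Myh11, the difference between CS and MI was 2.20 in the remote, 1.37 in the border and 0.83 in the infarct zone. The difference between these effects was -1.23 ± 0.30 for infarct against remote (adjusted p = 0.0999, edgeR), -0.70 ± 0.21 for border against remote (adjusted p = 0.123) and 0.53 ± 0.30 for border against infarct (adjusted p = 0.532). The remote libraries of CS served to choose Myh11, so the differences that involve the remote zone are not independent of that choice. None passed, and each of the 3 interactions called 0% of the 16902, 16784 and 17275 genes tested, with 4190, 3430 and 2012 genes at an unadjusted p under 0.05. Without CS replicate 1, the difference between the infarct and remote effects on Myh11 passed (-1.25, adjusted p = 0.0344).

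**Figure D2:**
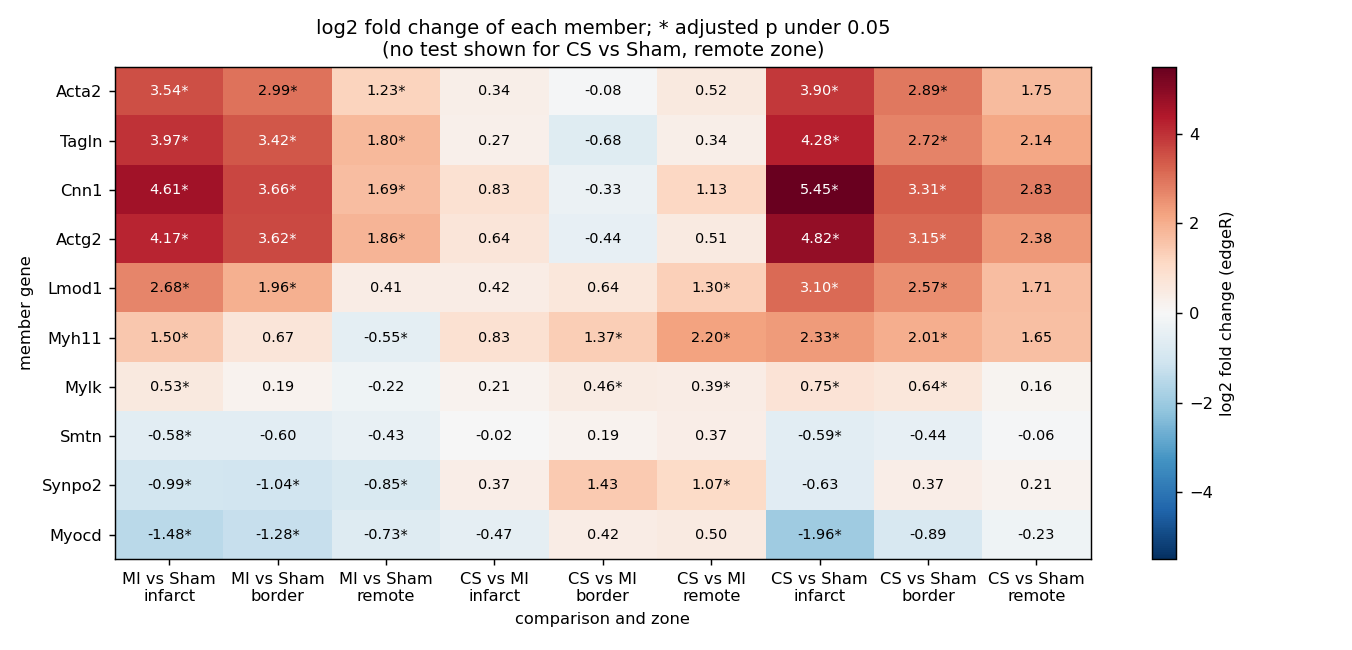
Fitted log2 fold change of each member (rows) in the 9 comparisons of treatments within a zone (columns), coloured from lower (blue) to higher (red), with * where the adjusted p was under 0.05 and no test shown for CS vs Sham in the remote zone. Acta2, Tagln, Cnn1, Actg2 and Lmod1 were positive wherever MI or CS was set against Sham, with Lmod1 not called in MI against Sham in the remote zone. Myh11 was positive in the 3 CS against MI columns (0.83, 1.37 and 2.20, the first not called). The remote libraries of CS served to choose Myh11, so its remote value is not independent of that choice. Smtn, Synpo2 and Myocd were low in MI against Sham.

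The comparison of CS with Sham set the treated infarct against the uninjured heart. Within the infarct, 7 members were higher and 2 lower in CS, beside 28.6% and 29.2% of the 15687 genes tested. Cnn1 was higher by 5.45 ± 0.81 (adjusted p = 0.000279, edgeR) and Myh11 by 2.33 ± 0.26 (adjusted p = 5.32e-05), while Smtn was lower by 0.59 ± 0.23 on the log2 scale (adjusted p = 0.042) and Myocd by 1.96 ± 0.63 (adjusted p = 0.0187). The call on Smtn was lost in 10 of the 12 fits without 1 animal, at adjusted p-values up to 0.0856. In the border zone, 7 members were higher and none lower, beside 20.4% and 23.2% of the 15960 genes. There Acta2 was higher by 2.89 ± 0.19 (adjusted p = 2.89e-06, edgeR), Myh11 by 2.01 ± 0.25 (adjusted p = 8.17e-05) and Mylk by 0.64 ± 0.12 (adjusted p = 0.00106). Both zones come from the hearts whose remote libraries served to choose Myh11, so its values here are not fully independent of that choice.

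The comparison of CS with Sham in the remote zone is the one that chose Myh11, so its values are a description with no test. It called 0.0066% of the 15157 genes, which is Myh11 alone. The median of Myh11 was 3.48 times that of Sham. The adjusted p on which the choice rested was 0.0126 for Myh11, and the nearest member outside it was Lmod1 at 0.14. Medians of the other members against Sham were 2.86 times for Acta2, 3.14 for Tagln, 5.10 for Cnn1, 2.79 for Lmod1 and 3.88 for Actg2, with all 6 CS libraries above the highest sham value for each. They were 0.983 times for Smtn, 0.902 for Myocd, 1.19 for Synpo2 and 1.22 for Mylk, with overlap for each. For the members without overlap, the share of all genes so separated is not given here, and no member but Myh11 was called. CS and MI were both set against the same sham libraries here, and CS shared its libraries with the comparison with MI.

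**Figure D3:**
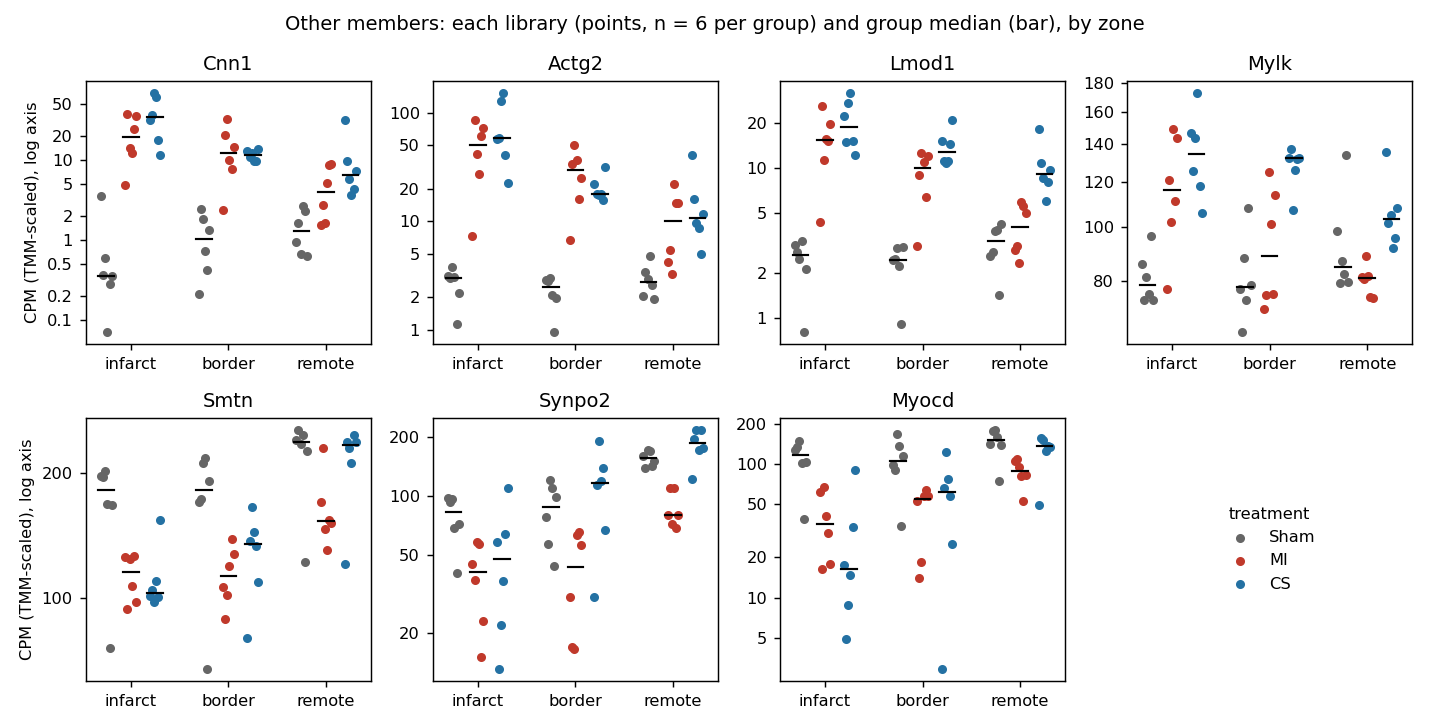
Level of the other 7 members in each library (points, TMM-scaled CPM on a log axis whose range differs between panels) by zone and treatment, with the median of 6 as a bar. Cnn1, Actg2 and Lmod1 were low in Sham and high in the infarct and border zones of MI and CS, whereas Smtn, Synpo2 and Myocd had a higher median in the remote zone than in the infarct zone in each treatment.

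The zones of 1 heart were compared with the animal as a block. In sham hearts, 6 of the 9 members tested were lower in the anterior wall than in the septum. Of the 15077 genes tested, 15.9% were higher and 16.4% lower there, and Synpo2 (-1.04 ± 0.12, adjusted p = 2.16e-05, edgeR), Myh11 (-0.62 ± 0.14, adjusted p = 0.00414), Acta2, Smtn, Mylk and Myocd were lower. Cnn1 was too low to be tested. The call on Mylk was lost whichever sham animal was left out, at adjusted p-values of 0.0548 to 0.188. In the lateral wall, with 12.7% of 15074 genes higher and 13% lower, Myh11 (-0.64 ± 0.15, adjusted p = 0.00969), Acta2, Smtn, Synpo2 and Myocd were lower. Myh11 was below the remote level in all 6 sham animals in the anterior wall and in 5 of 6 in the lateral wall. The remote libraries of Sham served to choose Myh11, so its zone differences here are not independent of that choice.

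In MI hearts, 7 members were higher and 3 lower in the infarct zone than in the remote zone. There, 18.3% of the 15901 genes were higher and 18.1% lower. Myh11 (1.33 ± 0.18, adjusted p = 0.00872, edgeR), Acta2 (1.72 ± 0.29), Tagln (2.15 ± 0.32), Cnn1, Lmod1, Mylk and Actg2 were higher, and Smtn, Synpo2 and Myocd were lower. Mylk was lost without MI replicate 4, 5 or 6 and Smtn without MI replicate 4 or 6, with adjusted p-values up to 0.081. Myh11 was above the remote level in 6 of 6 animals. Between the border and remote zones of MI, 0% of the 15738 genes passed with the block, although 5943 had an unadjusted p under 0.05, and Myh11 differed by 0.52 ± 0.17 (adjusted p = 0.0812).

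In CS hearts, Acta2 was called between zones and Myh11 was not. The remote libraries of CS are those in which Myh11 was chosen for its high level, so its zone difference is not independent of that choice. Of the 15854 genes tested between the infarct and remote zones, 31.5% were higher and 31.4% lower. The difference in Myh11 was 0.07 ± 0.22 (adjusted p = 0.777, edgeR), with 3 animals above and 3 below, whereas Acta2 was higher by 1.72 ± 0.45 (adjusted p = 0.0136) and Tagln by 2.23 ± 0.55 (adjusted p = 0.0107), with Acta2 above the remote level in 6 of 6 animals. Cnn1, Actg2, Lmod1 and Mylk were also higher, and Myocd (-2.67 ± 0.62, adjusted p = 0.00842), Synpo2 (-2.13 ± 0.46) and Smtn (-0.92 ± 0.15) lower. Between the border and remote zones, with 29.2% of 15904 genes higher and 27.2% lower, Acta2, Tagln and Mylk were higher and Smtn, Synpo2 and Myocd lower. Without CS replicate 1, Cnn1, Lmod1 and Actg2 passed as well. Leaving out another CS animal left 1 to 4 members called there, and of these calls Tagln was lost in 5 of the 6 fits and Acta2 and Mylk in 4. The share of all genes called in those fits is not given here. Between the infarct and remote zones, Mylk was lost in 4 of the 6 fits, Cnn1 in 3 and Lmod1 in 2.

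To set the members against the pair of genes that myofibroblasts share, each was expressed in each library as log2(CPM + 0.1) minus the mean of Acta2 and Tagln on that scale. Gene length is not corrected in this ratio, so only its change between groups can be read, and it is given with no test. For Myh11 the sham medians of the infarct, border and remote zones were 0.08, -0.02 and 0.28. In MI they were -2.43, -2.57 and -1.70, and no MI library overlapped the sham libraries in any zone. In CS they were -1.84, -0.99 and 0.53. The CS libraries did not overlap those of MI in the border zone (-1.51 to -0.25 against -2.97 to -1.61) and did in the infarct zone. In the remote zone, 5 of the 6 CS libraries lay at 0.22 to 0.73, within or above the sham range of -0.39 to 0.48, and CS replicate 1 lay at -1.57 within the MI range. The remote levels of Myh11 in CS and Sham are those that chose it, so these remote ratios are not independent of that choice.

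The ratio falls wherever Acta2 and Tagln rise more than a gene does, so it shows only which members kept step with that pair. Actg2 kept step: its median ratio differed between groups by 0.52 at most in any zone. Mylk, Smtn, Synpo2 and Myocd had lower ratios in the infarct zones of MI and CS than in Sham with no overlap, and the median of MI minus Sham was -3.19, -4.24, -4.86 and -5.38. Mylk itself was at 1.47 times its sham median in MI there, so its ratio fell because Acta2 and Tagln rose more. For Cnn1 the median of MI minus Sham was 1.50 and that of CS minus Sham 1.89 in the infarct zone, with overlap with Sham in every zone. Cnn1 had a median of 5 raw counts in Sham there. With an offset of 1 in place of 0.1, its sham log2 median moved from -1.12 to 0.44. The differences of Cnn1 from Sham therefore depend on the offset and do not show that it outpaced Acta2 and Tagln. Its CS libraries lay above those of MI in the infarct zone by 0.38 at the median. For Lmod1 the median of MI minus Sham was -1.34 in the infarct zone, with overlap, and in the border zone its CS libraries lay above those of MI with no overlap, by 0.77 at the median.

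**Figure D4:**
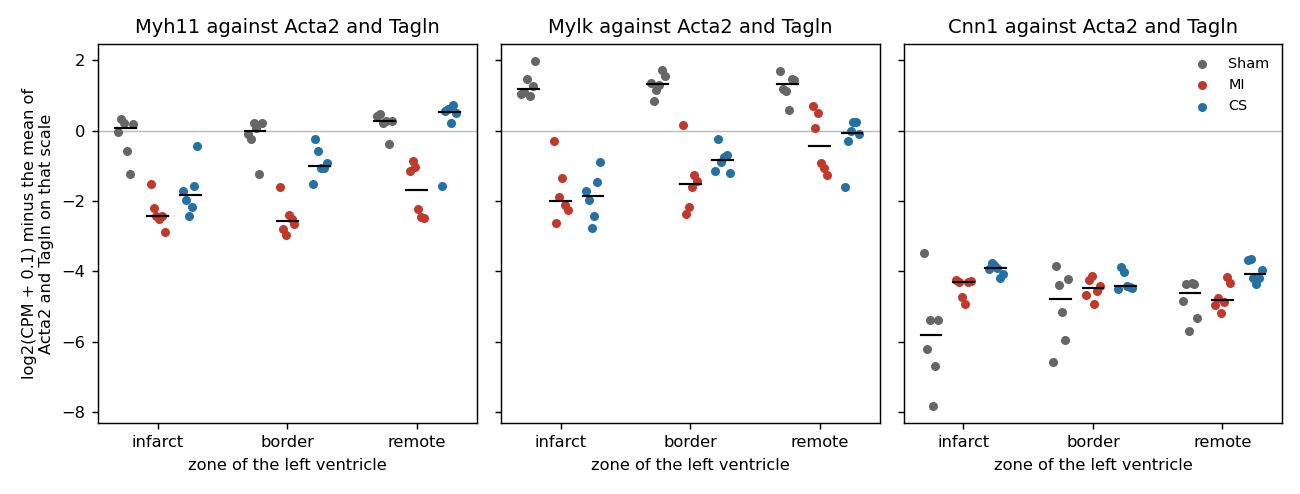
Level of Myh11, Mylk and Cnn1 relative to Acta2 and Tagln in each library (points, log2 scale), by zone and treatment, with the median of 6 as a bar. For Myh11, the MI libraries lay below the sham libraries in every zone, and 5 of the 6 CS libraries of the remote zone lay at 0.22 to 0.73. The ratio also falls where Acta2 and Tagln rise, and the remote libraries of CS and Sham served to choose Myh11.

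The members also differed in how they varied among animals of 1 group. With group means removed, Acta2 correlated with Tagln (r = 0.96), Actg2 (0.92), Lmod1 (0.80) and Cnn1 (0.79). Myh11 correlated with Lmod1 at r = 0.75, with Actg2 at 0.71 and with Acta2 at 0.68, and with Synpo2 and Myocd at 0.06 and 0.00. Synpo2 and Myocd correlated with each other at r = 0.87. The myofibroblast markers correlated with Tagln at r = 0.69 and with Acta2 at 0.60 and with Myh11 at -0.02. The mural markers correlated with Lmod1 at 0.66, Myh11 at 0.56, Actg2 at 0.55 and Acta2 at 0.45.

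Over the 13291 genes compared, those outside the members most like Myh11 were Notch3 (r = 0.78), a receptor of vascular smooth muscle and pericytes, Cnnm2 (0.73), Myl9 (0.72), the regulatory light chain that Mylk phosphorylates, Olr63, Susd5, Gja5, Arhgef17, Kcnmb1, Fblim1 and Nt5dc3. Kcnmb1 (r = 0.67) is the beta subunit of the calcium-activated potassium channel of vascular smooth muscle, and Gja5 (0.69) is a gap junction protein of arteries. Those most like Acta2 were Slc26a11 (r = 0.84), Ctsd, Ckap4, Pdgfrb (0.83), Itga11 (0.82), P3h3, Tpm2 (0.82), Olfml2b, Cald1 (0.81) and Snai1. Pdgfrb is a receptor of mural cells and fibroblasts, Itga11 a collagen receptor of activated fibroblasts, and Tpm2 and Cald1 bind actin filaments.

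Some markers of mural cells moved with Myh11 and others did not. The summed CPM of the 10 mural and pericyte markers was 1365 to 1596 in the border zone of CS against 654 to 1068 in MI, and 1010 to 1404 in the remote zone against 785 to 969, with no overlap in either and all 10 detected. In the remote zone Abcc9 weighed most in the sum, with medians of 437 CPM in CS and 212 in MI. Without Abcc9 the remote sums of CS and MI would overlap. The cardiomyocyte marker sum was also higher at the median in CS there, and its part in these values was not tested. In CS against MI, 8.47% of all genes were called higher and 9.48% lower in the border zone. In the remote zone these shares were 10.3% and 6.79%. Of the 10 markers, Notch3, Rgs5, Abcc9 and Cspg4 were higher in CS than in MI in the border zone, and Notch3, Abcc9 and Cspg4 in the remote zone, with none called lower. The other markers did not all have higher medians: in CS against MI, Anpep was at 91.8 against 115 CPM and Higd1b at 7.28 against 10.37 in the border zone. In the remote zone the medians of Anpep (16.03 against 55.9 CPM), Higd1b (7.05 against 9.40), Ndufa4l2 (13.5 against 16.2), Mcam (135 against 143) and Pdgfrb (136 against 141) were lower in CS, none of them called. The median difference over the 10 markers was 0.30 in the border and 0.08 in the remote zone. Notch3 rose by 1.53 in the border (adjusted p = 0.00186, edgeR) and by 0.97 in the remote zone (adjusted p = 0.00973). The summed myofibroblast markers were 23420 to 52717 CPM in the border zone of CS and 13712 to 40633 in MI. Remote from the infarct they were 1920 to 9204 in 5 CS libraries and 35474 in CS replicate 1, against 4362 to 20449 in MI. The part of mural cells in the level of Myh11 was not tested.

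Of 16 partner genes of the contractile apparatus, such as light chains, tropomyosins and focal adhesion proteins, 2 were higher and 1 lower in CS than in MI in the border zone, near the 8.47% and 9.48% of all genes. Tln1 rose by 0.43 (adjusted p = 0.0184, edgeR) and Vcl, which links actin to integrins, by 0.62 (adjusted p = 0.0237), and Myl6 fell by 0.66 (adjusted p = 0.0116). Farther off, in the remote zone, 2 of 16 were higher, Vcl (0.81, adjusted p = 0.00724) and Des (0.52, adjusted p = 0.0367), and none lower, beside 10.3% and 6.79% of all genes. The median over the 16 was 0.06 in the border and 0.11 in the remote zone, against -0.0044 and 0.0059 over all genes tested. Between MI and Sham in the infarct zone, 9 of the 16 were higher and 3 lower, beside 22.7% and 27.2% of all genes, led by Itga8 (3.58, adjusted p = 7.82e-05), Tpm2 (2.87), Actn1 (1.88) and Cald1 (0.98), at a median of 0.78 against -0.02 over all genes.

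Among 15 regulators of contraction, 3 were higher and 1 lower in CS than in MI in each of the border and remote zones, beside 8.47% higher and 9.48% lower of all genes in the former and 10.3% and 6.79% in the latter. Prkg1, the cGMP-dependent kinase that relaxes smooth muscle, rose by 1.04 in the border zone (adjusted p = 0.00862, edgeR) and by 1.13 in the remote zone (adjusted p = 0.00175). Irag1, a partner of that kinase, rose by 0.93 in the border zone (adjusted p = 0.0187), along with Itpr1 (0.44), and Ppp1r12b, a subunit of myosin phosphatase, by 1.09 in the remote zone (adjusted p = 0.00876), along with Kcnmb1 (0.72). Ppp1r14a, an inhibitor of that phosphatase, fell by 0.62 in the border zone (adjusted p = 0.0324), and Rhoa by 0.40 in the remote zone (adjusted p = 0.042). In the infarct zone of MI against Sham, 6 of the 14 tested were higher and 4 lower, beside 22.7% and 27.2% of all genes, with Irag1 at 1.76 (adjusted p = 0.000222), Kcnmb1 at 2.07 (adjusted p = 0.000932) and Pde5a at 0.96 among the former and Rock1 at -0.67 among the latter.

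Of 10 transcriptional regulators of the programme, 5 were lower and none higher in MI than in Sham in the remote zone, beside 14.2% and 11.7% of all genes. In the same zone 3 were higher and none lower in CS than in MI, beside 10.3% and 6.79%. Srf, the factor that Myocd binds, fell by 0.58 on the log2 scale in the former (adjusted p = 0.00526, edgeR) and rose by 0.72 in the latter (adjusted p = 0.0103). These comparisons share the MI libraries. Elk1 and Gata6 were the others called in both, with Foxo4 and Mrtfb lower in MI as well. In the border zone, Mrtfb, a coactivator related to Myocd, was the 1 regulator called and rose by 1.29 in CS over MI (adjusted p = 0.000729).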

How the data were processed

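RNA was measured in 54 rat libraries, and raw read counts per gene were used as deposited. The authors aligned the reads with STAR to mRatBN7.2, and their processing notes name DESeq2. Which program counted the reads, and whether it used strand, is not given in the sources used here. The 5 summary lines of each file (17.0 to 42.8% of its total) were left out. The labels call the numbered libraries technical replicates, while the study's methods describe separate animals, and the number was taken as the animal. No 2 libraries of a group were identical.

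Each comparison was fitted on its own libraries with edgeR 4.0.16 (R 4.3.3), using filterByExpr, TMM factors, the quasi-likelihood test and Benjamini-Hochberg adjustment over all genes tested, with a threshold of 0.05. Zones of 1 heart were fitted with the animal as a block. Levels are CPM, with an offset of 0.1 on the log2 scale, and an offset of 1 was tried as an alternative. Alternatives were DESeq2 1.42.0, library sizes without TMM factors, no filter, a replicate block, all 3 treatments in 1 fit, and leaving out each animal. Leaving out CS replicate 1 and Sham replicate 5 together was added after seeing the data. The procedure was tested on simulated counts.

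The members and the gene lists were chosen with earlier results of these data known. Named in each list were at most 4 called genes with the lowest adjusted p, and the 10 genes whose deviations from group means correlated best with those of Myh11 and of Acta2.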

Additional observations from a re-analysis of the deposited data

Results flagged for a closer look

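In groups of 6 libraries, the gap between the highest or lowest library and its neighbour, as a share of the group's range, was checked for the 10 members in 9 groups. It passed the limit in 16 of 90 groups. For independent normal values chance gives about 1 in 20, but the members share libraries and vary together, and CPM was not log-transformed. The count is therefore a description and no test against chance.

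CS replicate 1 in the remote zone gave 7 of the 16. There it was highest for Acta2 (400 CPM against 138 in the next library, a gap of 0.824 of the range), Tagln (430 against 111, 0.891), Cnn1 (32.1 against 9.86, 0.782), Mylk (136 against 108, 0.629) and Actg2 (40.9 against 16.2, 0.687). It was lowest for Smtn (121 against 212, 0.722) and Myocd (49.7 against 125, 0.698). The same library had the highest myofibroblast marker sum and the lowest cardiomyocyte marker sum of its group, and their part in these values was not tested.

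Sham replicate 5, the animal with the high macrophage marker sum, gave 5. It was lowest for Smtn in the infarct (75.6 against 168 CPM, 0.723), border (67.4 against 170, 0.685) and remote zones (122 against 225, 0.781) and for Lmod1 in the border zone (0.906 against 2.23, 0.644), and highest for Mylk in the remote zone (134 against 98.1, 0.66). CS replicate 6 was highest in the infarct zone for Smtn (154 against 110 CPM, 0.782) and Myocd (89.8 against 34, 0.657), and it also had the highest cardiomyocyte marker sum there. CS replicate 3 was lowest for Mylk in the border zone (107 against 126 CPM, 0.629), and Sham replicate 1 was highest for Cnn1 in the infarct zone (3.61 against 0.602, 0.85).

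The effect of MI against Sham differed between the infarct and remote zones for 7 members, by the interaction test. The differences on the log2 scale were 1.965 for Myh11, 2.202 for Acta2, 2.158 for Tagln, 3.316 for Cnn1, 2.198 for Lmod1, 0.7096 for Mylk and 2.314 for Actg2. That of Myh11 used the sham remote libraries that served to choose it, so it is not independent of that choice.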

How the results depend on the processing

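The calls of the members kept their direction and their side of the threshold in 2743 of 3001 refitted values, 142 lost and 48 gained the threshold, and 68 changed sign, 0 of which had passed in the fit reported. The higher level of Myh11 in CS than in MI held in the border and remote zones under every alternative run. For the infarct and border zones summed it was lost with the replicate block (1.11, adjusted p = 0.0539, edgeR). The remote libraries of CS served to choose Myh11, so what held in the remote zone is not independent of that choice. The cause of the changes below was not tested. Except where a number of all genes is printed, the counts of members called below stand without the share of all genes called in the same refit. They describe how calls depend on the setting and are no result about the members.

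With replicate numbers as a replicate block between treatments, members called fell to 1 in CS against MI in the border zone, the remote zone and both zones summed, and to 0 in CS against Sham in the remote zone. There the sign of Acta2 (0.094) and Cnn1 (0.0094) turned in the border zone and of Tagln (0.045) in the sum. The numbers name different rats: same-numbered libraries correlated at -0.622 to 0.507, 16 of 54 pairs over 0.1, and 9 libraries correlated best with their own number, so this is no pairing. Without the animal block, calls between zones became 1 and 0 (Sham infarct and border against remote), 5 (MI border) and 2 (CS border), and Tagln in the sham border zone (-0.0032) and the CS effects of infarct minus remote on Acta2 (-0.17) and Tagln (-0.058) turned. CS against Sham in the remote zone called 6 members with DESeq2 (179 of 26719 genes), 2 with all groups in 1 fit (20 of 15814) and 6 without CS replicate 1 and Sham replicate 5 (128 of 15122), as a description since this comparison chose Myh11. No filter gave 1 call in CS against MI in the border zone, and turned Tagln in Sham infarct against remote (-0.0010) and Acta2 in the CS effect of infarct minus remote (-0.0059). Library sizes without TMM factors moved the median of all genes by up to 0.266, in CS against Sham in the border zone, and turned Tagln in Sham infarct against remote (-0.024), Myh11 in CS border against remote (0.0079) and Smtn in the MI effect of infarct minus remote (0.029).

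Leaving out 1 animal gave 1 to 2 calls in CS against MI in the border zone, 4 to 8 in MI against Sham in the remote zone, 0 to 2 in CS against Sham in the remote zone, 1 to 9 in CS border against remote, 0 to 4 for the MI effect of border minus remote (4 without MI replicate 5) and 0 to 1 for the CS effect of infarct minus remote (1 without CS replicate 1). The log2 differences that changed sign ranged as follows. In CS against MI they were -0.14 to 0.034 for Smtn and -0.015 to 0.57 for Synpo2 in the infarct zone, and -0.28 to 0.18 for Acta2 and -0.55 to 0.077 for Cnn1 in the border zone. Remote from the infarct they were -0.019 to 0.66 for Acta2, -0.37 to 0.57 for Tagln and -0.089 to 0.85 for Actg2. In the sum they were -0.039 to 0.31 for Acta2, -0.27 to 0.10 for Tagln and -0.12 to 0.25 for Myocd. Smtn in CS against Sham in the remote zone gave -0.18 to 0.050. Between zones, Sham infarct against remote gave -0.14 to 0.071 for Tagln and -0.27 to 0.061 for Actg2, Sham border -0.045 to 0.16 for Tagln, and CS infarct -0.14 to 0.20 for Myh11. The MI effect on Smtn gave -0.15 to 0.055 for infarct minus remote and -0.20 to 0.062 for border minus remote. The CS effect over MI gave -0.043 to 0.41 for Lmod1 in border minus infarct, -0.43 to 0.13 for Acta2 and -0.75 to 0.018 for Myocd in border minus remote, and, in infarct minus remote, -0.33 to 0.31 for Acta2, -0.26 to 0.48 for Tagln, -0.58 to 0.28 for Cnn1 and -0.18 to 0.59 for Actg2.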
